A study of Arabidopsis thaliana with 26 samples.

Results

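The UDP-glycosyltransferases (UGTs) of Arabidopsis were followed through a series of steroid treatments by the probe sets of the Affymetrix ATH1 array that name exactly 1 gene with a UGT symbol. Of 47 such probe sets, the 32 whose intensities averaged 10 or more across the 26 arrays were taken as members, among 17606 probe sets tested and 22746 on the array without controls. Each member stands for a different gene. The rule used the symbol and the mean over all arrays, without the treatment labels. For members close to the cut, a high group or letter could still lift that mean past 10.

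UGTs move a sugar from a UDP-sugar donor onto small molecules, which changes the solubility, storage and activity of the acceptor. In Arabidopsis the family glycosylates hormones, flavonols, monolignols, glucosinolate precursors, sterols and foreign compounds. Glucosylation by UGT73C5 and UGT73C6 is a known way of inactivating brassinosteroids, the steroid hormones that promote cell elongation; these genes had no probe set naming them alone and were not analysed here.

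The series held 13 groups of 2 arrays, lettered A and B, of whole seedlings 7 days old. Of 12 steroids on the route to brassinolide, the most active brassinosteroid, campestanol was given at 10 µM; 6-deoxocathasterone, cathasterone, 6-deoxoteasterone, teasterone, 3-dehydro-6-deoxoteasterone, 3-dehydroteasterone, 6-deoxotyphasterol, typhasterol and 6-deoxocastasterone at 1 µM; castasterone at 100 nM; and brassinolide at 10 nM, each for 3 h, and the remaining group was mock-treated. All groups shared the Col background, the seed stock N6159 and the description de-etiolated; the labels do not say which genotype that stock is, and it is not assumed here to be wild type. Whether arrays A and B came from separate cultures is not stated, so each p-value reflects the scatter between arrays, which can be technical.

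Values are MAS5 intensities on a linear scale, and changes are differences of log2(intensity + 5), given ± SE; on this scale dim probe sets show smaller changes than on the intensity itself. Array medians lay between 33.9 and 41.0, and correlations between the arrays of a group across probe sets lay between 0.948 and 0.975. Green tissue and root markers were checked against the tissue label, though only 2 of 5 and 1 of 5 had a probe set naming them alone. PSAN, a photosystem I subunit, had 1022.5, 1376 and 2025 on the lowest, median and highest array, and EXPA7, a root hair expansin, had 106, 180 and 240. RCA, the activase of Rubisco, had 15.5, 581 and 1591 on the lowest, median and highest array, a wide range for a leaf gene. No seed storage marker had a probe set naming it alone. As a scale for the response, EXO, a brassinosteroid-induced cell wall gene, rose by a log2 change of 2.76 ± 0.30 after brassinolide and 3.14 ± 0.30 after castasterone (limma, adjusted p = 3.2e-05 and 1.08e-05).

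In whole seedlings the intensity of a probe set cannot tell fewer cells of a type from less RNA per cell. The brightest UGT member was UGT88A1, with a mean of 499, followed in intensity by UGT74B1 at 252, UGT72E1 at 231, UGT74D1 at 223 and UGT72E2 at 170. The dimmest were UGT85A3 at 10.3, UGT73D1 at 10.5, UGT74F1 at 10.6, UGT71B5 at 13.3 and UGT72E3 at 17.5. Probes differ in their own brightness, so this order does not rank the transcripts. The 15 named UGT probe sets left out as too dim were those of UGT71B6, UGT71B8, UGT73B4, UGT73B5, UGT73C1, UGT73C2, UGT73C7, UGT76E1, UGT76E12, UGT78D3, UGT84A1, UGT84B1, UGT84B2, UGT85A5 and UGT85A7. Just outside the threshold lay UGT73B5, with a mean of 8.44, and UGT85A7, with 6.84.

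No UGT member passed the test against mock after any of the 12 compounds, with limma fitted to all 26 arrays and p-values adjusted over the 17606 probe sets (Benjamini-Hochberg, adjusted p under 0.05). This fit held no term for the letters A and B, so the difference between them counted as spread. The same test over all probe sets called 2.58% after brassinolide, 2.38% after castasterone, 1.95% after 6-deoxocastasterone, 1.77% after typhasterol and 1.42% after 3-dehydroteasterone. It called 0.557% after 3-dehydro-6-deoxoteasterone, 0.352% after teasterone, 0.193% after 6-deoxotyphasterol, 0.165% after 6-deoxoteasterone, and 0% after campestanol, 6-deoxocathasterone and cathasterone. For a family of this size these shares amount to less than 1 member in any comparison. With the letter as a replicate block, limma called UGT88A1 after brassinolide, castasterone and typhasterol (adjusted p = 0.00249, 0.00272 and 0.0118). That fit also called UGT85A2 after castasterone and 6-deoxocastasterone (0.0400 and 0.0498) and UGT73D1 after 6-deoxocastasterone (0.0410). UGT73D1 passed the intensity filter only through its 6-deoxocastasterone arrays, as given below. The share of all probe sets that the blocked fit called was not counted, so its calls cannot be set against such a share. Unless stated, the treatment comparisons below are from the fit without the letters.

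The counts at an unadjusted p under 0.05 are given beside those of all probe sets. Brassinolide gave 5 of 32 (15.6%, against 9.76% of all probe sets), castasterone 7 (21.9%, against 11.2%), 6-deoxocastasterone 6 (18.8%, against 9.88%) and typhasterol 4 (12.5%, against 9.01%). Of the compounds before typhasterol, 6-deoxotyphasterol gave 3 (9.38%, against 4.3%), 3-dehydroteasterone 2 (6.25%, against 8.06%), 3-dehydro-6-deoxoteasterone 4 (12.5%, against 6.12%), and teasterone 1 (3.12%, against 4.87%). Campestanol gave 1 (3.12%, against 1.54%), while 6-deoxoteasterone, cathasterone and 6-deoxocathasterone gave 0, against 3.92%, 3.2% and 3.25% of all probe sets. All 12 comparisons share the mock arrays. None of these members passed after adjustment in the fit without the letters, so they are given below as values. The 6 after 6-deoxocastasterone include UGT73D1, which passed the intensity filter only through its arrays of that group.

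**Figure D1:**
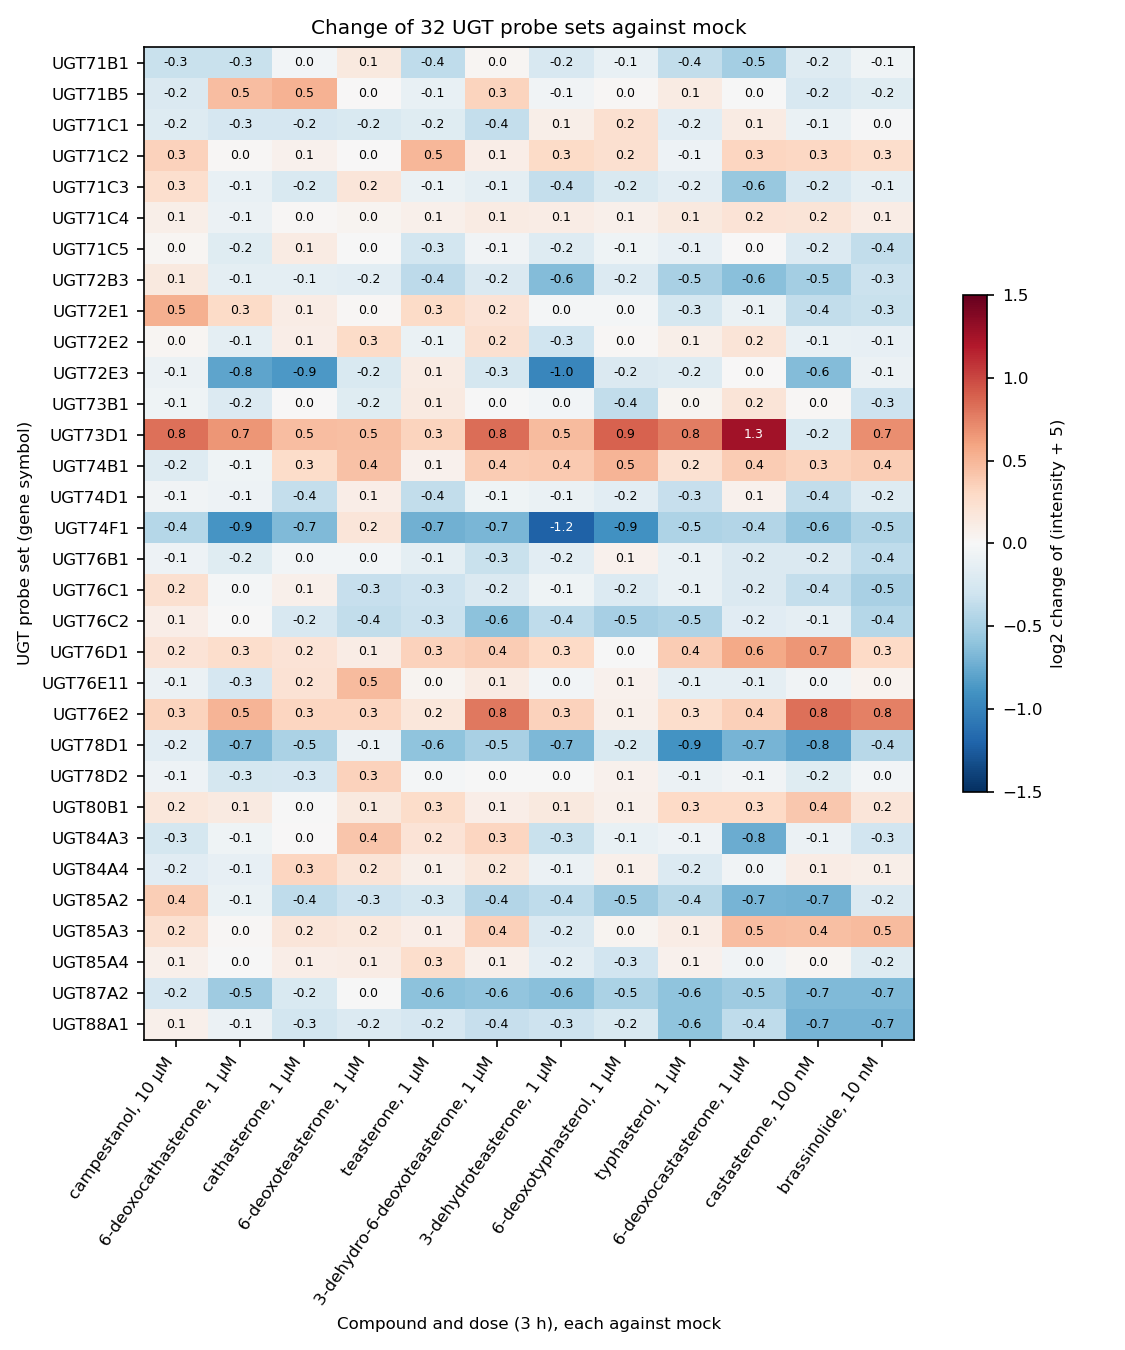
Log2 change of each of the 32 UGT probe sets (rows) against mock for 12 compounds at the doses shown (columns), on log2(intensity + 5), with red above and blue below mock. Changes lie between -1.2 (UGT74F1 after 3-dehydroteasterone) and 1.3 (UGT73D1 after 6-deoxocastasterone). None passed an adjusted p under 0.05 in the fit without the letters.

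UGT88A1 had the lowest change of the family, averaged over brassinolide and castasterone. It had 402 and 345 after brassinolide, 419 and 332 after castasterone and 395 and 404 after typhasterol, against 706 and 522 in mock. Every one of these 6 arrays was below both mock arrays. The log2 changes were -0.70 ± 0.22 after brassinolide, -0.70 ± 0.22 after castasterone and -0.60 ± 0.22 after typhasterol (limma, adjusted p = 0.120, 0.122 and 0.271). Between arrays of 1 letter, the change after brassinolide was -0.81 for A and -0.59 for B, and that after typhasterol was -0.83 for A and -0.37 for B. After campestanol it had 744 and 549, inside or above the range of mock.

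UGT87A2, which has been studied for an effect on flowering time, had 36.7 and 47.9 after brassinolide and 34.6 and 50.2 after castasterone, against 66.8 and 71.6 in mock. Both groups lay below mock without overlap, with log2 changes of -0.66 ± 0.26 and -0.66 ± 0.26 (limma, adjusted p = 0.333 and 0.286). Earlier compounds gave log2 changes of -0.62 ± 0.26 after teasterone, -0.63 ± 0.26 after 3-dehydroteasterone and -0.60 ± 0.26 after typhasterol. Between arrays of 1 letter, the change after 6-deoxocathasterone, where 0% of probe sets were called, was -0.54 for A and -0.52 for B. It was 0.07 and -0.54 after cathasterone, and -0.13 and -0.36 after campestanol. All these changes share the mock arrays, and mock was the highest group of UGT87A2. After 6-deoxoteasterone the arrays stood at 67.4 and 70.0, within the range of mock.

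UGT85A2 had 92.6 and 66.8 after castasterone and 99.5 and 63.1 after 6-deoxocastasterone, against 128 and 135 in mock. These changes of -0.70 ± 0.22 and -0.69 ± 0.22 had adjusted p-values of 0.115 and 0.140 (limma). Without array B the change after 6-deoxocastasterone was -0.38, and between arrays of 1 letter it was -0.34 for A and -1.04 for B. After brassinolide it had 103 and 123, a log2 change of -0.21 ± 0.22, and after campestanol 191 and 152, above both mock arrays. Its neighbours on the chromosome, UGT85A7 and UGT85A5, were too dim to be members. UGT85A3, from the same cluster, had 9.97 and 17.3 after brassinolide, against 10.2 and 6.38 in mock, so its groups overlapped.

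UGT76E2 was the highest of the family after these compounds. It had 30.6 and 35.2 after brassinolide and 33.8 and 35.8 after castasterone, against 17.5 and 17.5 in mock. The log2 changes were 0.75 ± 0.31 and 0.82 ± 0.31 (limma, adjusted p = 0.374 and 0.255). Other groups spread widely, with 39.8 and 18.0 after 6-deoxocathasterone and 32.8 and 14.3 after typhasterol. Mock was the lowest group of UGT76E2, and every change against it shares those arrays. Between arrays of 1 letter, the change after 3-dehydro-6-deoxoteasterone was 0.95 for A and 0.63 for B. After 6-deoxotyphasterol it was 0.04 for A and 0.10 for B.

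UGT73D1, a dim probe set, gave the smallest adjusted p of the family in the fit without the letters. After 6-deoxocastasterone it had 19.1 and 19.0, against 10.2 and 1.59 in mock, a log2 change of 1.27 ± 0.34 (limma, adjusted p = 0.0619). The array pair of mock differed widely: between the A arrays the change was 0.67, and between the B arrays it was 1.86. After castasterone, at a lower dose, it had 2.48 and 4.79, and after brassinolide 10.3 and 12.3, on either side of the mock mean. The mean of UGT73D1 over all arrays, 10.5, just passed the cut of 10. Without its highest group, 6-deoxocastasterone with a mean of 19.0, the mean would have fallen below the cut. UGT73D1 passed only through the group where it is high, so no change, count or call of it there is independent of the filter.

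**Figure D2:**
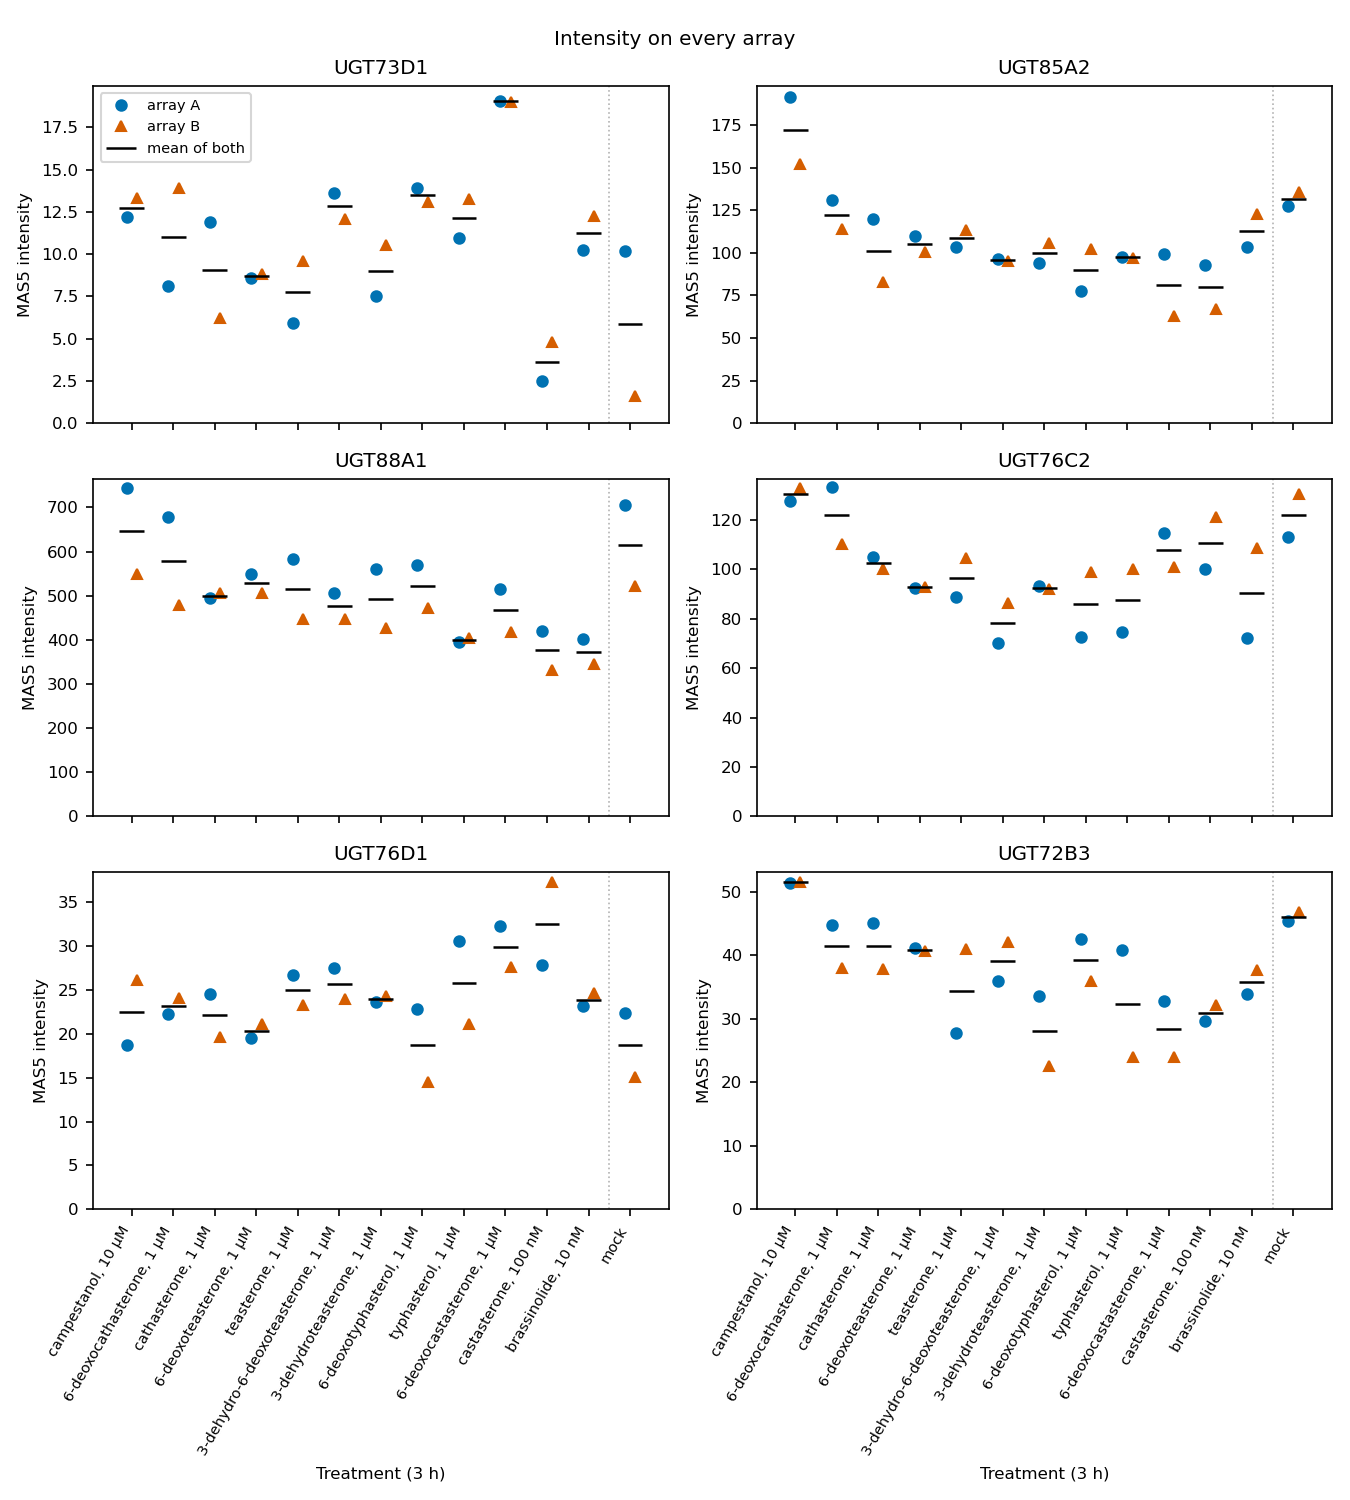
MAS5 intensity on each array for the 6 UGT members with the smallest p-values against mock, with arrays A as circles, arrays B as triangles and the mean of both as a line, from campestanol to brassinolide with mock at the right. UGT88A1 lies at 345 and 402 after brassinolide and at 522 and 706 in mock, while UGT73D1 lies at 19.0 and 19.1 after 6-deoxocastasterone and at 1.59 and 10.2 in mock.

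Some members act on other hormones. UGT76C1 and UGT76C2, adjacent genes whose products N-glucosylate cytokinins, had log2 changes of -0.48 ± 0.35 and -0.43 ± 0.20 after brassinolide and -0.35 ± 0.35 and -0.14 ± 0.20 after castasterone. UGT76C2 had 72.3 and 109 after brassinolide and 70.1 and 86.5 after 3-dehydro-6-deoxoteasterone, against 113 and 131 in mock, each group below both mock arrays. Its change after 3-dehydro-6-deoxoteasterone was -0.61 ± 0.20 (limma, adjusted p = 0.330). UGT74D1, which glucosylates auxin, had 194 and 229 after brassinolide, against 188 and 310 in mock, an overlap with a change of -0.19 ± 0.36. UGT71C5, which glucosylates abscisic acid, had 87.5 and 69.5 after brassinolide, against 116 and 89.1 in mock, a change of -0.36 ± 0.19.

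Of the members tied to salicylic acid and defence, UGT76B1, which glucosylates isoleucic acid and salicylic acid, had 81.6 and 83.7 after brassinolide, against 112 and 107 in mock. The groups did not overlap, with a log2 change of -0.38 ± 0.17 (limma, adjusted p = 0.439). UGT74F1, a salicylic acid glucosyltransferase, was dim and uneven, with 11.3 and 8.39 after brassinolide, against 8.16 and 26.1 in mock. Its interval after brassinolide ran from -2.08 to 1.17, so the array pair did not fix even the direction.

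Of 7 members that act on phenolic compounds, none passed the test after brassinolide or castasterone. That test called 2.58% and 2.38% of all probe sets, shares that leave little room for a call among 7 members. UGT78D1, the flavonol rhamnosyltransferase, had 23.2 and 32.5 after brassinolide and 16.7 and 24.0 after castasterone, against 34.2 and 43.1 in mock. Both groups lay below mock, yet the log2 changes of -0.42 ± 0.57 and -0.79 ± 0.57 were of the size of their errors. Mock was the highest group of UGT78D1. UGT78D2, which adds glucose to flavonols and anthocyanidins, had changes of -0.04 ± 0.23 after brassinolide and -0.18 ± 0.23 after castasterone. UGT72E1, UGT72E2 and UGT72E3, which glucosylate monolignols and related aldehydes, had -0.34 ± 0.48, -0.12 ± 0.36 and -0.08 ± 0.52 after brassinolide. UGT84A3 and UGT84A4, adjacent genes for glucose esters of hydroxycinnamic acids, had -0.29 ± 0.36 and 0.09 ± 0.27 after brassinolide. UGT84A3 was lowest after 6-deoxocastasterone, with 16.2 and 8.61, against 18.4 and 30.0 in mock (-0.75 ± 0.36; limma, adjusted p = 0.501).

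UGT74B1, which glucosylates thiohydroximates in glucosinolate synthesis, had 289.5 and 252 after brassinolide, against 166 and 261 in mock, an overlap with a log2 change of 0.37 ± 0.27. UGT80B1, a sterol glucosyltransferase, had 49.8 and 51.8 after castasterone and 40.7 and 45.2 after brassinolide, against 38.6 and 35.8 in mock. Its changes were 0.40 ± 0.17 after castasterone and 0.18 ± 0.17 after brassinolide (limma, adjusted p = 0.318 and 0.866). Mock was the lowest group of UGT80B1. UGT76D1, which glucosylates dihydroxybenzoic acids, had 27.8 and 37.2 after castasterone, against 22.4 and 15.1 in mock, a change of 0.67 ± 0.24 (limma, adjusted p = 0.210). UGT71C2 overlapped with mock after both compounds, with 97.6 and 60.3 after brassinolide and 122 and 51.1 after castasterone, against 123 and 31.4 in mock.

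Over the family, 22 of 32 log2 changes (68.8%) were below 0 after brassinolide, against 50.1% of all probe sets, and 22 (68.8%) after castasterone, against 46%. The count was 24 (75%, against 45.5%) after 6-deoxocathasterone, a compound after which 0% of the probe sets tested were called, and 24 (75%, against 55.2%) after 3-dehydroteasterone. It was lowest after 6-deoxoteasterone, with 12 (37.5%, against 51.1%), and lay between 15 and 21 after the other 7 compounds. The medians were -0.17 after brassinolide, where that of all probe sets was 0.00, and -0.18 after castasterone, where that of all probe sets was 0.03. Every interval here is an unadjusted 95% interval of 1 member. Those of 20 members after brassinolide and of 19 after castasterone lay within a 2-fold change in either direction, and the others reached beyond it. UGT72B3, named after its values were seen, had 29.6 and 32.3 after castasterone and 32.9 and 24.0 after 6-deoxocastasterone, against 45.4 and 46.8 in mock (-0.51 ± 0.23 and -0.63 ± 0.23).

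**Figure D3:**
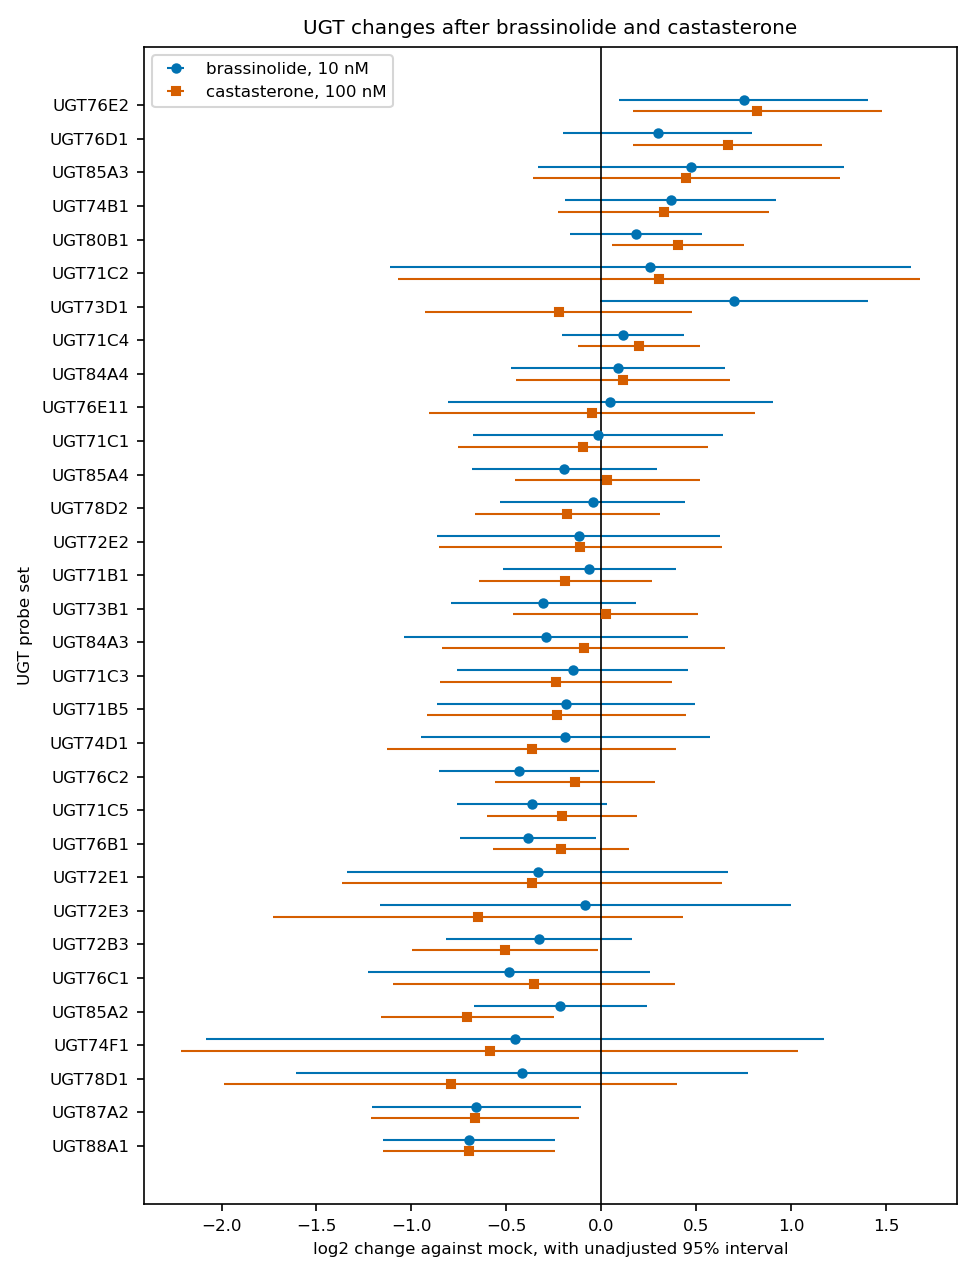
Log2 change against mock of the 32 UGT probe sets after brassinolide (circles) and castasterone (squares), with unadjusted 95% intervals, ordered by the mean of both. UGT76E2 is at the top with 0.75 and 0.82 and UGT88A1 at the bottom with -0.70 and -0.70, and the widest intervals belong to UGT74F1.

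Compounds at 1 µM were compared in 11 pairs, 4 that differ in the C-6 ketone and 7 of successive steps. limma called 0 of 32 members in each pair, and 0% of all probe sets in every pair except 6-deoxocastasterone against 6-deoxotyphasterol, where it called 0.00568%. Among the C-6 pairs, 2 members had an unadjusted p under 0.05 for teasterone against 6-deoxoteasterone (6.25%, against 2.84% of all probe sets). They were UGT71B1, also named after its values were seen, with 39.8 and 45.7 against 57.9 and 69.6, and UGT87A2, with 32.8 and 56.6 against 67.4 and 70.0. Cathasterone against 6-deoxocathasterone gave 0 (2.7% of all probe sets), 3-dehydroteasterone against 3-dehydro-6-deoxoteasterone gave 0 (3.94%) and typhasterol against 6-deoxotyphasterol gave 0 (3.6%).

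The average over the 4 C-6 pairs was narrower. limma called 0 of 32 members and 0% of all probe sets, and at an unadjusted p under 0.05 it gave 0 members and 3.46% of all probe sets. The log2 averages ran from -0.29 ± 0.28 (UGT78D1) to 0.23 ± 0.12 (UGT73B1, named after its values were seen). For 31 of 32 members the 95% interval of that average lay within a 2-fold change; that of UGT74F1 reached just past it on the low side. A test that the C-6 difference is unequal among the 4 pairs called 0 members and 0% of all probe sets, and at an unadjusted p under 0.05 gave 0 members and 2.65% of all probe sets.

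Along the steps, single members had an unadjusted p under 0.05. Teasterone against cathasterone gave UGT71C5 (3.12%, against 2.4% of all probe sets), 3-dehydroteasterone against teasterone gave UGT72E3 (3.12%, against 2.29%), and 3-dehydro-6-deoxoteasterone against 6-deoxoteasterone gave UGT87A2 (3.12%, against 3.29%). UGT78D2 and UGT71B1 were higher in 6-deoxoteasterone than in 6-deoxocathasterone (6.25%, against 5.65%). UGT78D2 had 156 and 194 after 6-deoxoteasterone, against 96.5 and 131 after 6-deoxocathasterone, a log2 difference of 0.61 ± 0.23 (limma, adjusted p = 0.788). Comparing 6-deoxotyphasterol with 3-dehydro-6-deoxoteasterone gave UGT76E2 and UGT76B1 (6.25%, against 3.54%), and 6-deoxocastasterone with 6-deoxotyphasterol gave UGT76D1 and UGT73B1 (6.25%, against 4.85%). Typhasterol against 3-dehydroteasterone gave 0 (1.66% of all probe sets).

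Over all 13 groups at once, limma's F test without a letter term called 0 of 32 members, against 2.15% of all probe sets. At an unadjusted p under 0.05 it gave 3 members, UGT73D1, UGT85A2 and UGT88A1, or 9.38%, against 7.36% of all probe sets. The lowest adjusted p in the family was 0.211. With the letter as a replicate block, the F test did call members, as given below with the other alternatives. UGT73D1 passed the intensity filter only through its 6-deoxocastasterone arrays.

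The arrays lettered A and B differed for many members, in a fit with group and letter as terms. limma called 14 of 32 (43.8%), against 35.8% of all probe sets. Of these, 9 were higher in B (28.1%, against 21.7% of all probe sets) and 5 were lower in B (15.6%, against 14.1%). The 9 include UGT74F1, which passed the intensity filter through its B arrays. The labels do not say what the letters stand for.

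UGT74F1 had 5.66, 16.7 and 26.1 on the lowest, median and highest B array, against 1.92, 3.50 and 14.7 on the A arrays, and B was above A in 12 of 13 groups. Its log2 difference was 1.11 ± 0.17 (limma, adjusted p = 4.13e-05). The A arrays of UGT74F1 averaged 4.91 and the B arrays 16.2, so it passed the cut of 10 through the B arrays. Its letter difference is therefore not independent of the filter. UGT78D1 had 24.0, 40.5 and 51.3 on the B arrays, against 9.50, 16.7 and 34.2 on the A arrays, a difference of 0.82 ± 0.12. UGT76E11 and UGT72E2 differed by 0.59 ± 0.09 and 0.54 ± 0.06, and for UGT78D1, UGT76E11 and UGT72E2 array B was above array A in 13 of 13 groups.

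In the other direction, UGT71C2 had 31.4, 51.1 and 60.5 on the lowest, median and highest B array, against 71.8, 111 and 139 on the A arrays. The letters did not overlap, and the log2 difference was -1.03 ± 0.10 (limma, adjusted p = 1.51e-07). UGT72E1 had 122, 169 and 236 on the B arrays, against 191, 286 and 450 on the A arrays, a difference of -0.74 ± 0.07, with B below A in every group. UGT76C1, UGT71C1 and UGT88A1 were the other members lower in B, by -0.49 ± 0.08, -0.33 ± 0.09 and -0.27 ± 0.05. Several of these members, UGT74F1, UGT71C2, UGT72E1 and UGT78D1, are also among those with the widest intervals against mock.

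**Figure D4:**
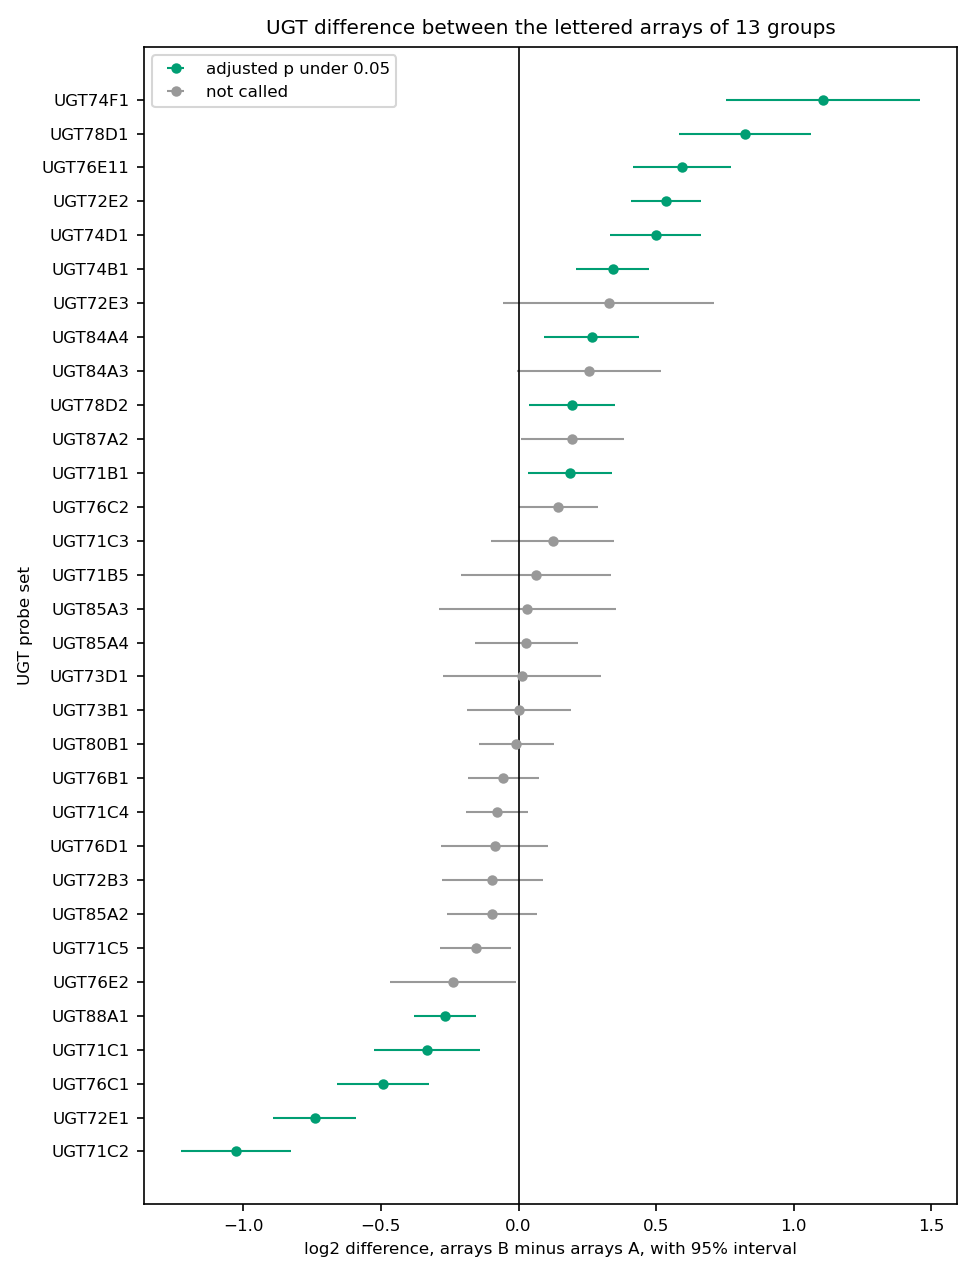
Log2 difference of arrays B minus arrays A for the 32 UGT probe sets over 13 groups, with 95% intervals, in green where the adjusted p was under 0.05. UGT74F1 is at the top with 1.11 and UGT71C2 at the bottom with -1.03. UGT74F1 passed the intensity filter through its B arrays.

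Genes around the family were taken from lists of UDP-sugar supply, phenylpropanoid and glucosinolate synthesis, brassinosteroid synthesis and inactivation, and other detoxification families. Few pathway genes had a tested probe set naming them alone. These were 0 of 8 for brassinosteroid synthesis, 1 of 7 for its inactivation, 1 of 16 for glucosinolates and 2 of 20 for phenylpropanoids and flavonoids. The pathways themselves were therefore not surveyed. Among glutathione S-transferases, 1 of 11 tested members was called after brassinolide, where 2.58% of all probe sets were called: GSTU26 rose by a log2 change of 0.96 ± 0.25 (limma, adjusted p = 0.0439). That call was also lost without the intensity filter (0.0539), without the intensity trend (0.0639) and in a fit of the compared groups alone (0.115). The 16 tested cytochrome P450 genes were CYP71B genes apart from CYP718 and CYP51G2, so they do not stand for the whole family. Of these 16, 0 were called in any comparison by limma. At an unadjusted p under 0.05 it gave 0 after brassinolide (9.76% of all probe sets) and 3 after castasterone (11.2%). The highest count was 5 of 16, for 3-dehydroteasterone against 3-dehydro-6-deoxoteasterone, where 3.94% of all probe sets had such a p. Of 24 genes for UDP-sugar supply, 1 was tested, USP, the UDP-sugar pyrophosphorylase, which rose by a log2 change of 0.59 ± 0.14 after brassinolide (limma, adjusted p = 0.0280), a call lost in a fit of the compared groups alone (0.275). Both calls were lost without either mock array or without brassinolide array B. Without brassinolide array B the change of GSTU26 was 0.51 and that of USP was 0.45. These fits held no letter term, so a difference between the letters could enter the change. BAT1, an acyltransferase of brassinosteroid inactivation, had a log2 change of 0.47 ± 0.23 after brassinolide (limma, adjusted p = 0.533). DFR and AT5MAT of the anthocyanin route and BCAT4 of glucosinolate synthesis were not called in any comparison.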

How the data were processed

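The authors deposited probe set intensities from MAS5, as named in the submitters' processing notes without a version or parameters. Their trimmed mean was 100.01 on every array, so no further normalization was applied. The 64 control rows were left out, 0 columns of samples were unused, and no pair of arrays was identical. Probe sets were named through the platform annotation, with symbols and neighbours from RefSeq (TAIR10.1); 9861 of those tested name 1 gene. Groups were taken from the labels.

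log2(intensity + 5) was fitted with limma 3.58.1 in R 4.3.3 (lmFit, eBayes with intensity trend) to the 26 arrays, with a coefficient for each group and 13 residual degrees of freedom, for probe sets with a mean of at least 10. Benjamini-Hochberg adjustment ran over all 17606. The fit was tested on simulated data with independent noise and a letter shift in a small set of probe sets. That test does not cover letter differences as widespread as those here. The precision is limited by 2 arrays per group.

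The members and gene lists were chosen with earlier results of these data known. The text names members called, the 6 highest and 6 lowest by the mean change after brassinolide and castasterone, the 5 brightest and 5 dimmest, those with a known role, list members, and the 6 with the largest letter difference. Alternatives were other normalizations, pseudocounts and filters, no trend, fits of the compared groups, a letter block and each array left out. A fit without the filter over all 47 UGT probe sets was added after seeing the data.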

Additional observations from a re-analysis of the deposited data

How the results depend on the processing

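The count of 0 called members held in every comparison with mock, every pair, the C-6 average and the test among the 13 groups under quantile normalization, median centring, a pseudocount of 1 and a minimum of 20, and, where run, in fits of the compared groups alone. The count between letters lay between 12 and 14. For 6-deoxocastasterone the count was 1 with a pseudocount of 16 and 1 without the intensity trend (UGT73D1 both times), and 0 to 1 with each array left out, 1 without mock array A. UGT73D1 passed the filter only through its 6-deoxocastasterone arrays, so these calls are not independent of the filter. Without the filter, over all 47 UGT probe sets, brassinolide gave 1 call, UGT84A1. The main fit did not pair arrays by letter, as the rule used asked for a correlation over 0.1 in every pair of groups. Deviations of same-lettered arrays correlated over 0.1 in 76 of 78 pairs of groups (lowest -0.022, median 0.317). Outside their group, 25 of 26 arrays correlated best with their own letter, so same-lettered arrays resembled each other. With the letter as a replicate block, limma called 2 members after castasterone (UGT88A1, adjusted p = 0.00272, and UGT85A2, 0.0400), 2 after 6-deoxocastasterone (UGT73D1, 0.0410, and UGT85A2, 0.0498), 1 after brassinolide (UGT88A1, 0.00249), 1 after typhasterol (UGT88A1, 0.0118), 2 among the 13 groups, and 0 in the other comparisons. The share of all probe sets called by the blocked fit was not counted. With each array left out, UGT71C2 ran from -0.65 to 1.17 after brassinolide and from -0.60 to 1.22 after castasterone, and UGT74F1 from -1.07 to 0.17 and from -1.38 to 0.20. Those fits held no letter term, so a group left with 1 array carried the letter difference into the change. Between arrays of 1 letter, the change of UGT71C2 after brassinolide was -0.32 for A and 0.84 for B. That of UGT74F1 was 0.31 for A and -1.21 for B. The letter differences of UGT71B1, UGT78D2 and UGT84A4 lost their call under median centring and quantile normalization. The cause was not tested. Intensities near the filter limit what dim members can show.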

Other observations

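UGT84A1, which makes glucose esters of hydroxycinnamic acids and lies beside UGT84A3, was below the intensity filter and is named here after its values were seen. It had 1.19 and 0.77 after brassinolide and 1.58 and 1.59 after castasterone, against 8.25 and 11.3 in mock. The log2 change after brassinolide was -1.30 ± 0.33 (limma without the filter, adjusted p = 0.0469), where 1.9% of 22746 probe sets were called. After castasterone it was -1.16 ± 0.33, with an adjusted p of 0.0939. Its log2 changes were of like size after compounds for which limma called 0% of the same probe sets, -1.19 ± 0.33 after 6-deoxocathasterone and -1.13 ± 0.33 after cathasterone (adjusted p = 0.920 and 0.893). They lay between -1.07 and -1.21 after 3-dehydro-6-deoxoteasterone, 3-dehydroteasterone, 6-deoxotyphasterol, typhasterol and 6-deoxocastasterone, and were -0.78 after teasterone, -0.52 after 6-deoxoteasterone and -0.28 after campestanol. All 12 share the mock arrays. After campestanol it had 13.4 and 2.96, which spans the mock values. It was not refitted with single arrays left out.

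Probe sets that hold a UGT gene under another name or beside a second gene were not members. Of these, SGT (UGT80A2), GT72B1 (UGT72B1), UF3GT (UGT79B1) and the probe set shared by UGT73B2 and UGT73B3 had 0 calls by limma in 24 comparisons. After brassinolide their log2 changes were 0.04 ± 0.16, -0.31 ± 0.26, -0.36 ± 0.60 and -0.21 ± 0.35.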
